A study of Arabidopsis thaliana with 24 samples.

Results

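The genes described here are 10 loci of the Arabidopsis thaliana lipid transfer protein family: LTP1 (AT2G38540), LTP2 (AT2G38530), LTP3 (AT5G59320), LTP4 (AT5G59310), LTP5 (AT3G51600), LTP6 (AT3G08770), LTP7 (AT2G15050), LTP8 (AT2G18370), LTP12 (AT3G51590) and the locus AT5G01870. They were taken by locus code, and all 10 are among the 20777 loci of the table. The family was chosen from earlier results of these same arrays, in which LTP2 and AT5G01870 were among the deepest falls from proliferating to expanding control leaf, LTP2 stood out under mannitol in expanding leaf and LTP3 in mature leaf. The members' values in those 3 comparisons are therefore given as a description, with no test. The other comparisons were tested, except LTP2 and LTP3 where the same mannitol arrays recur between leaf stages, with p adjusted over all 20777 loci, and an adjusted p under 0.05 counts as a call. Control arrays of those 3 comparisons recur in some tests of LTP2, LTP3 and AT5G01870. The p-values of these genes there are not independent of the choice.

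Nonspecific lipid transfer proteins are small secreted proteins with a conserved set of cysteines, folded around a hydrophobic cavity that binds fatty acids and other lipids. In shoots many of them are made in the epidermis, where they are thought to take part in building or sealing the cuticle. Several members of the family are known to respond to drought, salt or the hormone abscisic acid.

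RNA came from wild-type Col-0 plants grown in vitro without mannitol (0 mM, control) or with 25 mM of the osmotically active sugar alcohol mannitol. The sampled material was the shoot of seedlings at growth stage 1.03, and leaf 3 when proliferating (day 9 after sowing, leaf area about 0.1 mm2), expanding (day 15, 7 mm2) or mature (day 22, 40 mm2). Each of the 8 groups of stage by treatment has 3 arrays from 3 experiments, and each RNA was pooled from many plants. The treatment protocol in the labels names mannitol for every sample, so samples were grouped by their titles. Levels are log2 values from Affymetrix ATH1 arrays with 1 value per locus, and a level is compared only with other levels of the same gene. Where a group mean lay below 5.11, the 40th percentile of all values, the gene is called low in that group. In whole leaves, fewer cells of a type and less RNA per cell cannot be told apart.

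Array medians ran from 5.91 to 6.16, and arrays of a group correlated at 0.99 to 0.997. The stage labels matched their markers: 4 genes of dividing cells had a mean level of 9.97 in proliferating, 5.98 in expanding and 4.82 in mature control leaf, and 4 genes of ageing leaves rose from a mean of 4.46 in expanding to 6.79 in mature control leaf, with 3 of the 4 called. For 4 shoot meristem genes the mean per array stayed between 3.73 and 4.47 at all stages.

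The members differed widely in how much they varied. Over the 8 groups the mean level of LTP2 spanned 8.32 log2 units, that of AT5G01870 7.41, of LTP3 7.12, of LTP6 6.93, of LTP7 2.91, of LTP5 2.18, of LTP4 2.05 and of LTP1 0.99. For 7 of 10 members the span was 2 or more, which 17.5% of all loci reached. LTP8 and LTP12, the latter known as a gene of the anther tapetum, were low in all 8 groups, with single arrays between 3.54 and 4.05 and between 3.45 and 3.93. LTP4 was low in 7 groups, AT5G01870 in 3, and LTP2 and LTP3 in 2 each, while LTP1, LTP5, LTP6 and LTP7 were low in none.

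**Figure D1:**
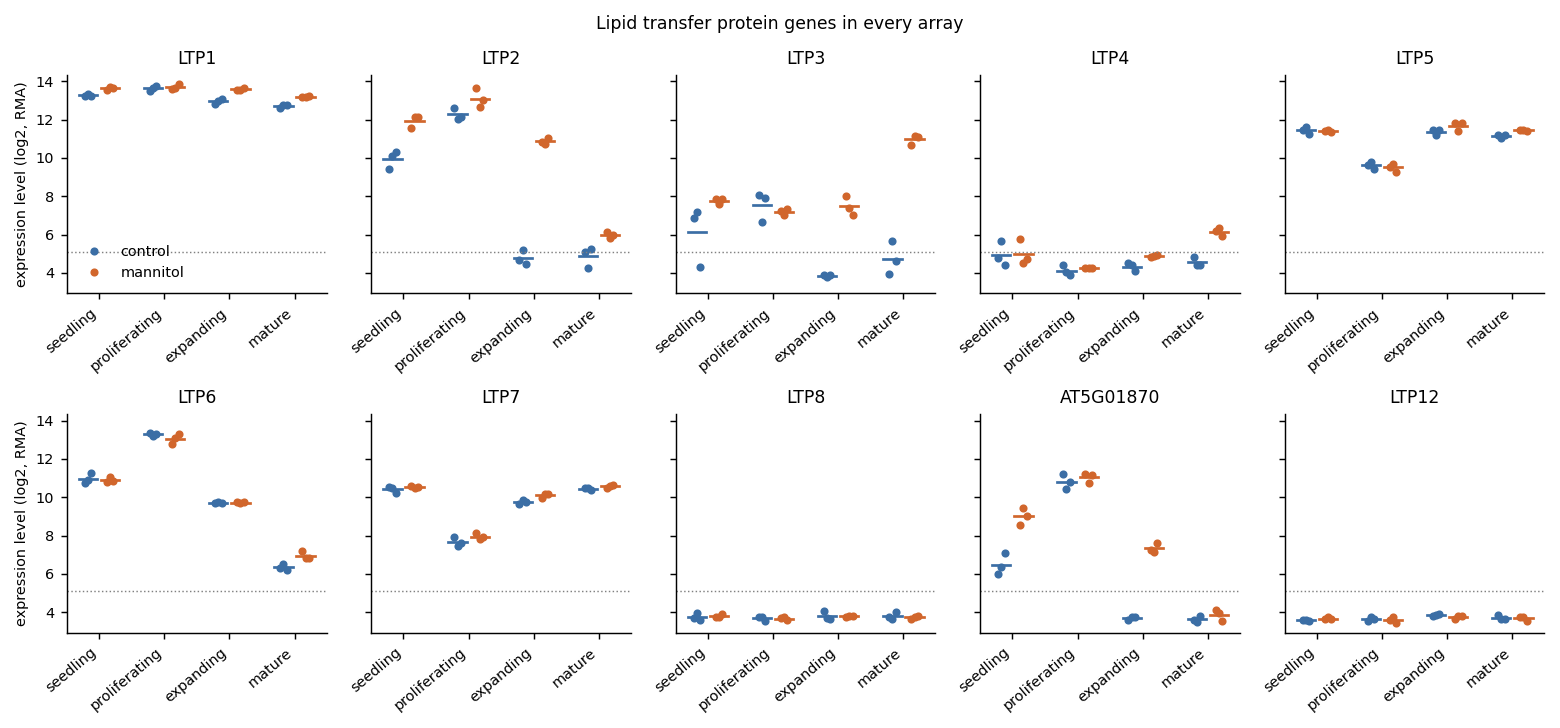
Expression level (log2, RMA) of each of the 10 genes in every array. Points are arrays, short bars are group means (n = 3), blue is control, orange is mannitol, and the dotted line marks the level of 5.11 under which a gene is called low. LTP2, LTP3 and AT5G01870 have the largest gaps between treatments, LTP6 and LTP7 differ mainly by stage, and LTP8 and LTP12 stay low throughout.

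LTP2, a protein of the cuticle and cell wall interface, had the widest span. In proliferating control leaf its levels were 12.62, 12.03 and 12.16, in expanding control leaf 4.68, 5.19 and 4.47, and in mature control leaf 5.11, 4.28 and 5.24. With mannitol they were 13.63, 12.64 and 13.0 in proliferating leaf, 10.82, 10.75 and 11.04 in expanding leaf, and 6.14, 5.84 and 6.0 in mature leaf. The expanding leaves thus stood furthest apart: every mannitol array was high and every control array was low or near it, with no overlap. The difference there was 6.09 ± 0.268 (log2, SE, n = 3 per group, 95% confidence interval 5.54 to 6.65), or 68.3-fold, and it ranked 1 from the top of all 20777 loci. In mature leaf it was 1.12 ± 0.268, again without overlap. Since LTP2 was low in the control arrays of both stages, the size of these folds depends on the background correction.

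In seedling shoots LTP2 rose with mannitol, from 9.42, 10.08 and 10.31 to 11.55, 12.16 and 12.12. The groups did not overlap, and the change was 2.01 ± 0.268 (log2, SE, limma adjusted p = 7.22e-05). In proliferating leaf the 3 mannitol arrays also lay above the 3 control arrays, by 0.83 ± 0.268 (limma adjusted p = 0.164, not called). The sample titles give replicate numbers but no pairing. In this stage, deviations of same-numbered control and mannitol arrays from their group means correlated at 0.27 to 0.33, which was read as pairing. With the replicate block the call was made (limma adjusted p = 0.0103). These proliferating control arrays also helped to choose LTP2, so neither p-value is independent of the choice.

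AT5G01870, a further locus of the family, moved in a pattern close to that of LTP2. Its control levels were 5.97, 6.36 and 7.07 in seedlings, 11.22, 10.41 and 10.80 in proliferating leaf, 3.61, 3.73 and 3.75 in expanding leaf and 3.60, 3.48 and 3.80 in mature leaf. With mannitol they were 8.56, 9.43 and 9.0 in seedlings, 11.22, 10.72 and 11.18 in proliferating leaf, 7.24, 7.14 and 7.61 in expanding leaf and 4.10, 3.98 and 3.52 in mature leaf. Treatments lay apart in seedlings and in expanding leaf, and overlapped in proliferating and in mature leaf, where both treatments were low. The seedling rise was 2.53 ± 0.243 (log2, SE, limma adjusted p = 7.66e-07), or 5.78-fold. Expanding leaf showed a difference of 3.63 ± 0.243 (95% confidence interval 3.13 to 4.14), against a control group that was low.

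The mannitol effect on AT5G01870 was smaller in proliferating leaf than in seedlings, by a difference of -2.30 ± 0.344 log2 units (limma adjusted p = 0.0021). It was the only one of the 10 members called in this test of the difference, in which 0.0674% of all loci were called lower and 0.14% higher. For LTP2 the same difference was -1.18 ± 0.379 (limma adjusted p = 0.472), and the replicate block brought it under the threshold (limma adjusted p = 0.0384). Both genes were chosen in part for a fall from the same proliferating control arrays, which favours a negative difference here. Their p-values in this test are therefore not independent of the choice.

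LTP3, a gene known to be activated by the drought-induced factor MYB96, had its highest levels in mature leaf with mannitol, 10.68, 11.15 and 11.08. The control arrays of that stage read 3.93, 5.65 and 4.64, so the groups lay far apart and the control mean was low. The difference was 6.23 ± 0.508 (log2, SE, n = 3 per group, 95% confidence interval 5.18 to 7.28), or 75.1-fold as fitted, and ranked 1 from the top of all loci at that stage. As with LTP2, a fold or rank against a low control group depends on the background correction. In expanding leaf the levels were 3.88, 3.78 and 3.91 without and 8.02, 7.37 and 7.02 with mannitol. That difference was 3.61 ± 0.508, again with no overlap and with control arrays that were all low.

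LTP3 had the widest spread between replicates of the 10 members, seen in its SE. Proliferating leaf had 8.05, 6.64 and 7.92 in control and 7.23, 7.0 and 7.33 with mannitol, which overlapped (difference -0.35 ± 0.508, limma adjusted p = 0.909). Seedling controls read 6.88, 7.16 and 4.31 and seedlings on mannitol 7.85, 7.58 and 7.85. The mannitol arrays all lay above, yet control replicate 3 was far below the other controls, and the difference of 1.64 ± 0.508 was not called (limma adjusted p = 0.151). Without control replicate 3 it was 0.74 (limma adjusted p = 0.742), and without control replicate 2 it was 2.17 and called (limma adjusted p = 0.0463).

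LTP4, the neighbour of LTP3 on chromosome 5 with 0 genes between them, had a mean above the low level in 1 of the 8 groups, mature leaf with mannitol. Its arrays there read 6.18, 6.34 and 5.95, against 4.81, 4.43 and 4.41 in control, a difference of 1.61 ± 0.26 (log2, SE) with no overlap. In expanding leaf the difference was 0.58 ± 0.26, between low groups. Seedlings (0.05 ± 0.26, limma adjusted p = 0.996) and proliferating leaf (0.14 ± 0.26, limma adjusted p = 0.935) were not called. Whether the array's probes tell LTP3 and LTP4 apart cannot be read from 1 value per locus.

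**Figure D2:**
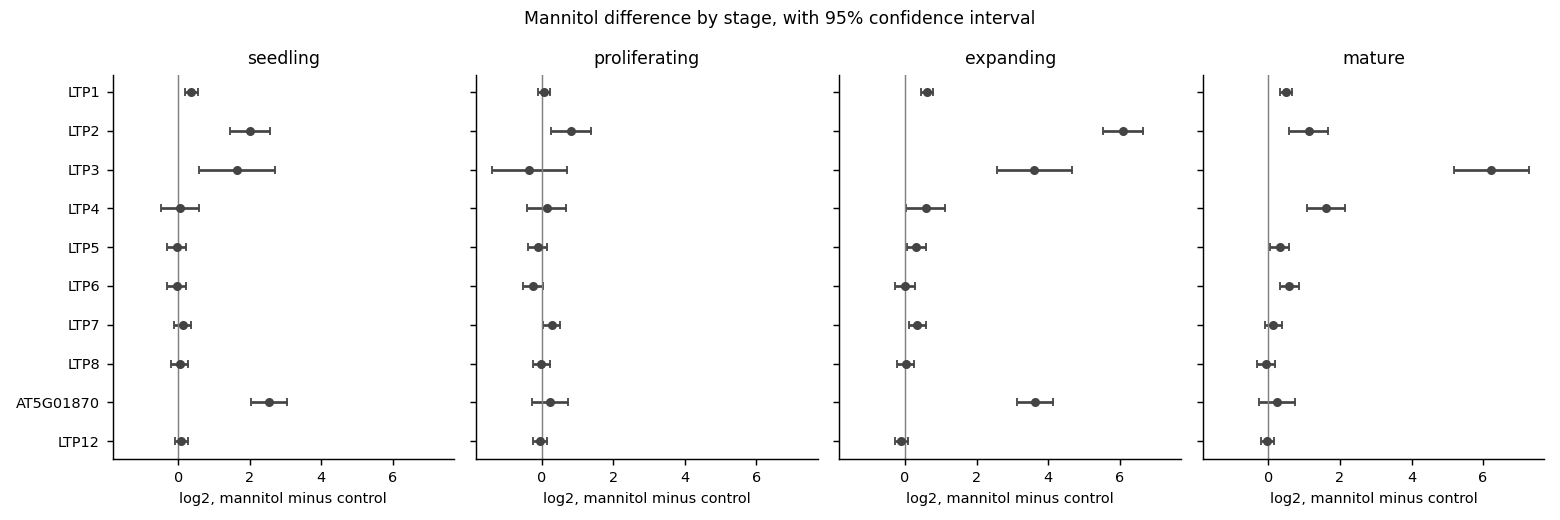
Mannitol minus control (log2) for each gene at each of the 4 stages. Points are the fitted differences and bars their 95% confidence intervals (n = 3 arrays per group). LTP2 stands at 6.09 in expanding leaf and LTP3 at 6.23 in mature leaf, while LTP5, LTP6, LTP7, LTP8 and LTP12 lie between -0.23 and 0.58 at every stage.

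LTP1, an epidermal family member that lies next to LTP2 on chromosome 2 with 0 genes between, changed little by comparison. Control arrays read 13.23, 13.34 and 13.23 in seedlings, 13.50, 13.65 and 13.76 in proliferating, 12.82, 12.98 and 13.06 in expanding and 12.62, 12.76 and 12.74 in mature leaf. The mannitol arrays read 13.56, 13.69 and 13.66 in seedlings, 13.62, 13.65 and 13.83 in proliferating, 13.55, 13.52 and 13.63 in expanding and 13.20, 13.19 and 13.21 in mature leaf. Treatments lay apart in seedlings, expanding and mature leaf, and overlapped in proliferating leaf. These levels lie near the upper end of the array scale, and what this does to the differences was not tested.

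The seedling rise of LTP1 was 0.37 ± 0.0849 (log2, SE, limma adjusted p = 0.022). That call was lost when control replicate 1 or 3 or the mannitol replicate 2 or 3 was omitted, and in a fit of the seedling groups alone (limma adjusted p from 0.0595 to 0.115, and from 0.00538 to 0.115 over 12 alternatives). The differences in expanding and mature leaf were 0.61 ± 0.0849 and 0.49 ± 0.0849.

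LTP6 followed the stage of the leaf. It read 13.36, 13.20 and 13.30 in proliferating, 9.68, 9.77 and 9.71 in expanding and 6.33, 6.51 and 6.23 in mature control leaf, with no overlap between stages. With mannitol it read 12.77, 13.10 and 13.28, then 9.74, 9.68 and 9.74, then 7.18, 6.83 and 6.81. Expanding leaves of both treatments overlapped (difference 0.00 ± 0.132, 95% confidence interval -0.28 to 0.27), as did those of proliferating leaf (-0.23 ± 0.132, limma adjusted p = 0.617), while mature leaves on mannitol lay 0.58 ± 0.132 higher. Seedlings read 10.73 to 11.24 in control and 10.78 to 11.07 with mannitol.

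LTP5, known from a mutant form that disturbs pollen tube guidance, and LTP7 were higher in expanding than in proliferating control leaf, where LTP6 was lower. LTP5 read 9.40 to 9.78 in proliferating, 11.17 to 11.47 in expanding and 11.02 to 11.20 in mature control leaf. LTP7 read 7.47 to 7.95, then 9.64 to 9.86, then 10.39 to 10.48. Both had their lowest levels in proliferating leaf. Their mannitol differences were small at each stage: for LTP5 between -0.11 in proliferating leaf and 0.32 in expanding and mature leaf, and for LTP7 between 0.13 in seedlings and in mature leaf and 0.34 in expanding leaf. Neither was called in seedlings or proliferating leaf (limma adjusted p from 0.387 to 0.994).

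Counted over the family, mannitol raised 3 of 10 members in seedlings (LTP1, LTP2 and AT5G01870) and lowered 0, with 1.17% of all loci called higher and 0.274% lower. In proliferating leaf 0 of 10 were called in either direction by limma, against 1.57% of all loci higher and 0.241% lower. Without adjustment, 2 of 10 (LTP2 and LTP7) were under 0.05 there by limma. The share of all loci under that unadjusted threshold was not counted, so nothing is read from this count. The replicate block called LTP2. The median change over the 10 members was 0.11 in seedlings and 0.02 in proliferating leaf, beside -0.01 and -0.03 over all loci.

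As a description, in expanding leaf 6 of 10 members had mannitol arrays that all lay above the control arrays and 0 had them all below. Of all loci 9.30% and 10.7% had groups that lay apart upward and downward. In mature leaf 7 members lay apart upward and 0 downward, beside 10.4% and 14.2% of all loci. The member medians were 0.46 and 0.41, and those of all loci -0.02 and -0.04. These 2 comparisons were among those that led to the choice of the family.

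The effects at different stages can be set side by side. For LTP2 the mannitol difference in expanding leaf exceeded that in proliferating leaf by 5.27 ± 0.379 and that in seedlings by 4.09 ± 0.379, and from expanding to mature leaf it changed by -4.98 ± 0.379. For AT5G01870 the same 3 differences were 3.40 ± 0.344, 1.10 ± 0.344 and -3.39 ± 0.344. LTP3 went the other way at the last step, with 3.96 ± 0.719, 1.97 ± 0.719 and 2.62 ± 0.719. None of these was tested, because each includes a comparison on which the family was chosen.

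**Figure D3:**
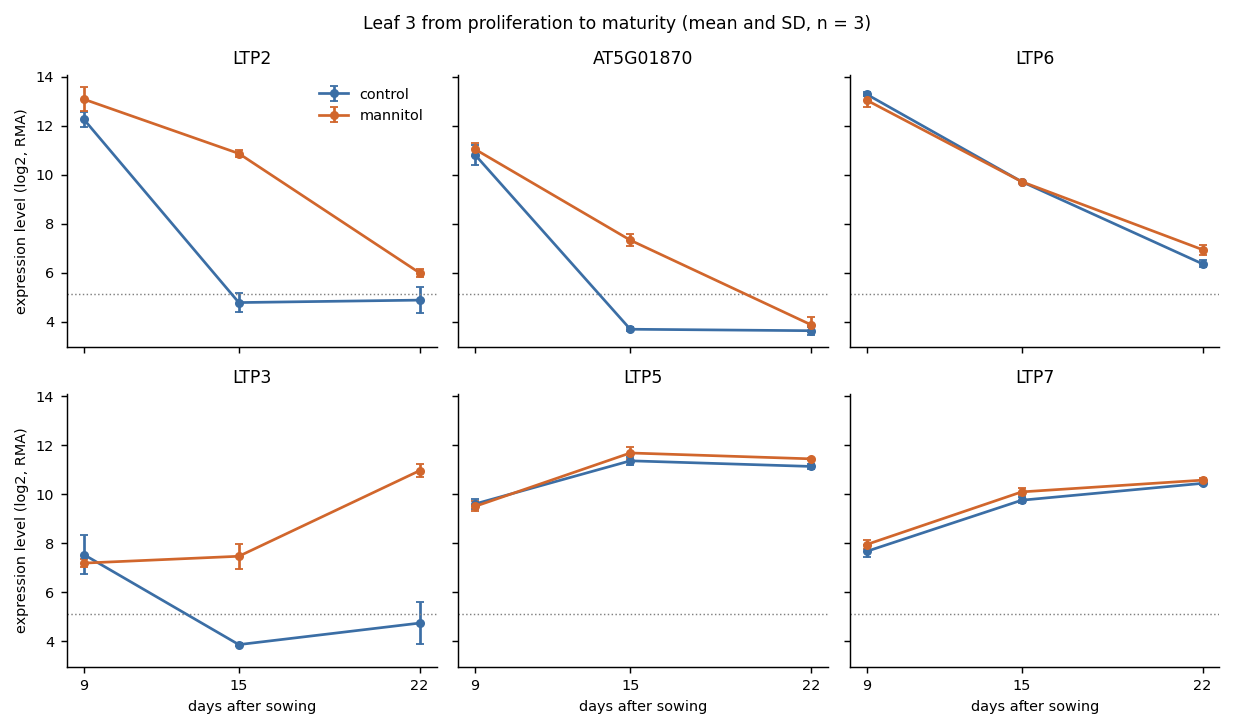
Level (log2, RMA) of 6 genes in leaf 3 at day 9, 15 and 22 after sowing. Points are means and bars SD of 3 arrays, blue is control, orange is mannitol, and the dotted line is the level of 5.11. LTP2 reads 4.78 in control and 10.87 with mannitol at day 15, LTP3 4.74 and 10.97 at day 22, and the blue and orange lines of LTP5, LTP6 and LTP7 stay close together.

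From proliferating to expanding control leaf, 5 members lay apart downward: LTP2 by -7.49 ± 0.268, AT5G01870 by -7.12 ± 0.243, LTP3 by -3.68 ± 0.508, LTP6 by -3.57 ± 0.132 and LTP1 by -0.69 ± 0.0849 (log2, SE). Upward were 3: LTP7 by 2.09 ± 0.117, LTP5 by 1.76 ± 0.128 and LTP12, within its low range, by 0.22 ± 0.0892. Of all loci, 31.7% lay apart downward and 30.6% upward, and nothing is read from the members' share, since this comparison helped to choose them.

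The same step was fitted under mannitol. Its expanding arrays are those in which LTP2 had stood out, so the LTP2 difference of -2.22 ± 0.268 (log2, SE) is given with no test. AT5G01870 fell, with a change of -3.71 ± 0.243 (limma adjusted p = 5.35e-12), as did LTP6 with -3.34 ± 0.132 (limma adjusted p = 8.43e-16). LTP5 rose by 2.18 ± 0.128, LTP7 by 2.15 ± 0.117 and LTP4, within low levels, by 0.66 ± 0.26 (limma adjusted p = 0.0304 for LTP4). The call of LTP4 was lost without any 1 of the 6 arrays and after quantile normalization (limma adjusted p 0.0508 to 0.0891, range over 11 alternatives 7.55e-05 to 0.0891). LTP3 was at 7.19 in proliferating and 7.47 in expanding leaf, which overlapped (difference 0.28 ± 0.508, with no test). Of all loci 31.8% were called lower and 33.2% higher at this step. Calls over the whole family are not counted here, since LTP2 and LTP3 are not tested.

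From expanding to mature control leaf, LTP6 fell by 3.36 ± 0.132 (limma adjusted p = 9.98e-15), LTP1 fell by 0.25 ± 0.0849 (limma adjusted p = 0.0233) and LTP7 rose by 0.69 ± 0.117 (limma adjusted p = 4.11e-05). Thus 2 of 10 members fell and 1 rose, beside 21.6% and 18.8% of all loci. The LTP1 call was lost without expanding control replicate 2 or 3 or mature control replicate 1, after centring arrays on their medians and in a fit of the groups alone (limma adjusted p 0.0558 to 0.162, range over 12 alternatives 0.00918 to 0.162). LTP2 and AT5G01870, already low in expanding control leaf, differed by 0.10 ± 0.268 and -0.07 ± 0.243 and overlapped.

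With mannitol the step from expanding to mature leaf used the arrays in which LTP2 and LTP3 had stood out, so both are described with no test. LTP2 went from a mean of 10.87 to 5.99, a difference of -4.88 ± 0.268 (log2, SE), and LTP3 from 7.47 to 10.97, a difference of 3.5 ± 0.508, each with no overlap. AT5G01870 fell, with -3.46 ± 0.243 (limma adjusted p = 1.55e-10), as did LTP6 with -2.77 ± 0.132 (3.39e-13) and LTP1 with -0.36 ± 0.0849 (0.00126). LTP4, the neighbour of LTP3, rose by 1.25 ± 0.26 (limma adjusted p = 0.00041) and LTP7 by 0.48 ± 0.117 (0.00169). These 5 calls held in each of the 11 or 12 alternatives run. Of all loci 21.5% were called lower and 18.6% higher at this step. Calls over the whole family are not counted here, since LTP2 and LTP3 are not tested.

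The order of the 8 group means shows which neighbouring groups could be told apart. For LTP2 it ran from 13.09 (proliferating, mannitol) through 12.27 (proliferating, control), 11.94 (seedling, mannitol), 10.87 (expanding, mannitol), 9.94 (seedling, control), 5.99 (mature, mannitol) and 4.88 (mature, control) to 4.78 (expanding, control). Of these neighbours, proliferating control overlapped with seedling mannitol and mature control with expanding control leaf, and the other pairs lay apart. For LTP3 mature leaf on mannitol stood apart at the top and expanding control leaf at the bottom with 3.86. Each neighbouring pair between 7.76 (seedling, mannitol) and 4.74 (mature, control) overlapped. AT5G01870 had overlap within proliferating leaf and among its 3 low groups, and LTP6 between the treatments of each of seedlings, proliferating and expanding leaf. For LTP5 the 6 groups other than proliferating leaf formed a chain of overlaps from 11.69 to 11.14.

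The family holds 3 pairs of adjacent genes. Over the 8 group means, which may share a processing run and replicate experiments, LTP1 and LTP2 correlated at r = 0.94 although their spans were 0.99 and 8.32. LTP3 and LTP4 correlated at 0.71 with LTP4 low in 7 groups, and LTP5 and LTP12, also with 0 genes between them on chromosome 3, at 0.47 with LTP12 low throughout. The closest other pairs were LTP2 with AT5G01870 (0.96) and LTP5 with LTP7 (0.95), which are no neighbours, and the most opposed was LTP6 with LTP7 (-0.77). These values describe 8 points each and carry no p.

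Among the 9169 other loci whose group means spanned at least 1 log2 unit, those most like a member over the 8 group means were listed by Pearson's r, for the 7 members whose own means spanned 2 log2 units or more (all but LTP1, LTP8 and LTP12). They were AT4G09500 (0.974), MLO4 (AT1G11000, 0.972) and the carboxypeptidase-like scpl35 (AT5G08260, 0.966) for LTP2. For AT5G01870 they were MEB1 (AT4G27860, 0.986), the calcium sensor CBL9 (AT5G47100, 0.981) and the AP2-type factor SMZ (AT3G54990, 0.981). LTP3 had no locus above 0.819, the value of AT2G23120, followed by AT1G67300 (0.812) and AT3G54200 (0.804). Closest to LTP4 were AZI1 (AT4G12470, 0.937), itself a lipid transfer-like protein of defence priming, HVA22E (AT5G50720, 0.932) and AT2G22200 (0.923). As LTP4 was low in 7 of the 8 groups, these values depend on low levels. For LTP5 the list held the glutathione synthesis enzyme GSH1 (AT4G23100, 0.994), PTAC16 (AT3G46780, 0.993) and AT1G76450 (0.993). LTP6 was followed by AT2G17630 (0.999), ATLP-1 (AT1G18250, 0.998) and AT1G15120 (0.998), and LTP7 by IRE1A (AT2G17520, 0.998), the cystatin CYSA (AT2G40880, 0.997) and AT1G16180 (0.996).

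Genes that build the cuticle were counted beside the family. Of 25 measured cutin and wax genes, 9 were higher with mannitol in expanding leaf and 12 in mature leaf, and 0 were lower at either stage (limma adjusted p under 0.05; medians 0.12 and 0.32). Of all loci 4.02% were called higher and 3.62% lower in expanding leaf, and 2.99% and 1.84% in mature leaf. In expanding leaf the acyl-CoA synthetase LACS1 (2.15 ± 0.175, limma adjusted p = 2.39e-08), the elongase CER6 (0.61) and the ketoacyl reductase KCR1 (0.44) had the smallest p, and in mature leaf the wax ester synthase WSD1 (1.60), the enoyl reductase CER10 (0.72) and the dehydratase PAS2 (0.88). The count of 9 was 5 without expanding control replicate 3. In seedlings and proliferating leaf 0 of 25 were called. The 3 with the smallest p in seedlings were HTH (-0.40), KCS1 (0.53) and KCR1 (0.27), and in proliferating leaf HTH (-0.42), CYP86A8 (-0.26) and KCS1 (0.41). In seedlings the replicate block called 1 higher and 2 lower, omission of mannitol replicate 2 gave 2 higher and omission of mannitol replicate 1 gave 1 lower. In proliferating leaf 1 was lower without mannitol replicate 2 or 3, and in expanding leaf 1 was lower with the block or without control replicate 1 or mannitol replicate 2. In mature leaf 1 was lower with the block.

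**Figure D4:**
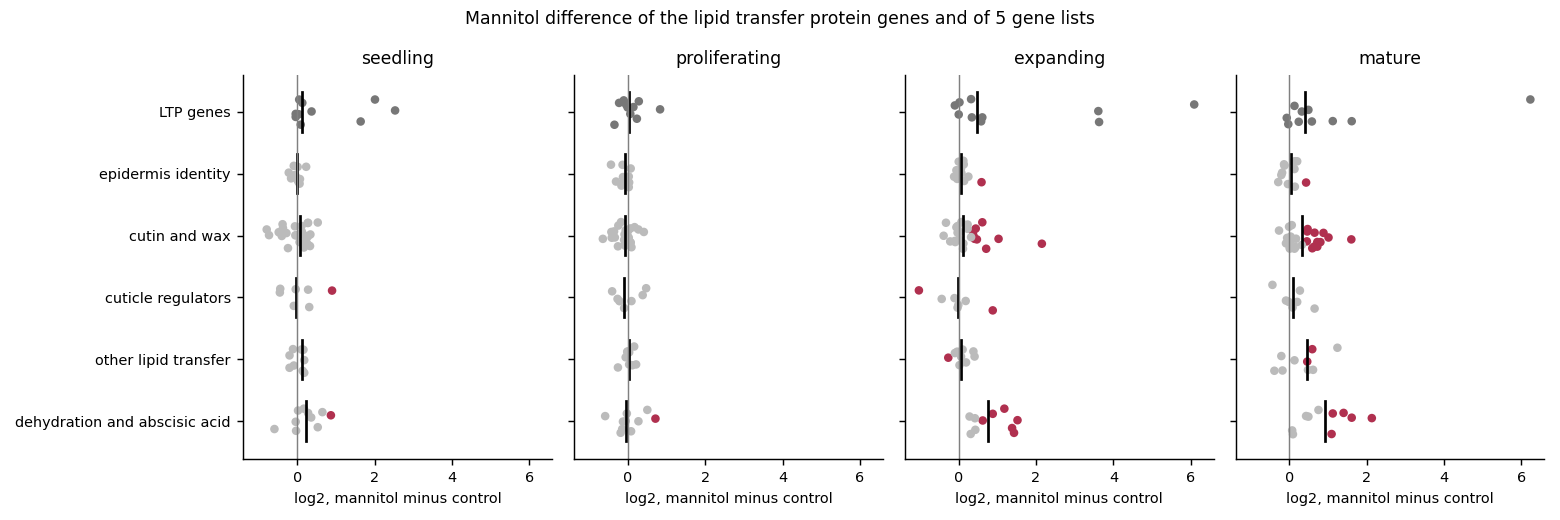
Mannitol minus control (log2) at each stage for the 10 lipid transfer protein genes and 5 gene lists. Each point is a gene, black bars are medians, red points are list genes called at an adjusted p under 0.05 and pale points list genes not called, and the family is drawn in dark grey with no call shown. The medians of the dehydration list are 0.75 in expanding and 0.92 in mature leaf, and 3 family members in expanding leaf and 1 in mature leaf lie beyond every list gene.

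Of 7 regulators of the cuticle, MYB96, an abscisic acid-induced activator of wax genes, rose in seedlings by 0.90 ± 0.19 (limma adjusted p = 0.0109) and in expanding leaf by 0.88 ± 0.19 (0.00395). In mature leaf it was 0.65 higher (limma adjusted p = 0.0515) and in proliferating leaf 0.47 (0.343), neither called. DEWAX, a repressor of wax genes, fell by 1.03 ± 0.161 in expanding leaf (limma adjusted p = 0.000156). It was not called in seedlings (-0.09), proliferating (-0.1) or mature leaf (-0.02). Of all loci 1.17% were called higher in seedlings, and 4.02% higher and 3.62% lower in expanding leaf. The medians of the 7 regulators from seedling to mature leaf were -0.04, -0.1, -0.03 and 0.08. The seedling count of 1 rise was 0 when control replicate 3, mannitol replicate 1 or mannitol replicate 3 was omitted. The replicate block added 1 fall in seedlings and 1 rise in each of proliferating and mature leaf, and the latter also appeared without mature control replicate 2 or mannitol replicate 1.

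Dehydration and abscisic acid genes were called higher for 1 of 10 in seedlings, 1 in proliferating, 6 in expanding and 5 in mature leaf, and lower for 0 at each stage. The dehydration gene RD22 was among them at all 4 stages (0.87, 0.71, 1.38 and 1.09). Expanding leaf also had the homeobox factor HB-7 (1.43) and the phosphatase HAI1 (1.18), and mature leaf RD29B (1.61) and LEA4-5 (2.13). The medians from seedling to mature leaf were 0.22, -0.05, 0.75 and 0.92. Beside them, 1.17%, 1.57%, 4.02% and 2.99% of all loci were called higher at these 4 stages. Between control leaves of expanding and mature stage all 10 of these genes rose (median 2.17), where 18.8% of all loci were called higher.

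Of 12 epidermal identity genes, 0 were called in seedlings or proliferating leaf, PDF1 (protodermal factor, 0.59) was higher in expanding leaf and the homeodomain factor PDF2 (0.43) in mature leaf. Of all loci, 4.02% were called higher in expanding and 2.99% in mature leaf. Omitting control replicate 1 or 3, or mannitol replicate 2 or 3, ended the PDF2 call, and 1 gene was lower without control replicate 2. The mean level of the list was 7.21 to 7.27 per array in expanding control and 7.29 to 7.37 in expanding mannitol leaf, and 6.55 to 6.61 and 6.53 to 6.63 in mature leaf. Over leaf growth these genes fell: 8 of 12 from proliferating to expanding and 6 of 12 from expanding to mature control leaf, with 0 rises. Beside them, 29.1% of all loci were called higher and 31.5% lower at the first step, and 18.8% and 21.6% at the next. For PDF1, the list gene of smallest p at both, these steps were -3.74 ± 0.118 and -4.35 ± 0.118 (log2). The part of these shifts in the levels of the lipid transfer genes was not tested.

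Other lipid transfer-like genes were counted as well, 9 measured loci with the GPI-anchored LTPG proteins, DIR1, AZI1 and EARLI1 among them. In seedlings and proliferating leaf 0 of 9 were called. In expanding leaf LTPG2 fell by 0.27 ± 0.0812, a call that no omission of a single array left standing, where 3.62% of all loci were called lower. In mature leaf 2 of 9 rose, LTPG6 (0.59) and LTPG1 (0.46), beside 2.99% of all loci. There were 4 rises without mannitol replicate 2 and 1 fall with the block. The list median in mature leaf was 0.46, beside 0.41 for the 10 family members and -0.04 for all loci. The difference between these genes and the family was not tested.

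Markers of other cells moved beside these results as follows. The 4 genes of dividing cells had a mean of 5.95 to 6.02 per array in expanding control and 6.28 to 6.51 in expanding mannitol leaf, with 1 called higher (KN, 0.48), 0 without any 1 of the 6 arrays and 2 with the block. In mature leaf PCNA1 (0.42) was called, and 0 were without any 1 of the 6 arrays. Of 4 guard cell genes MYB60 (-0.90) and KAT1 (-0.77) fell in seedlings, and KAT1 (-1.0) and MYB60 (-0.53) in expanding leaf. Of 4 ageing genes SEN1 (-1.09) fell in mature leaf. For the 4 vascular and the 4 meristem genes 0 were called with mannitol at any stage, and nothing is read from the meristem genes, whose mean was low throughout. Of 2 measured root genes the beta-glucosidase PYK10 was higher with mannitol in expanding (1.91) and mature leaf (2.09) and RHD6 was not called. The part of these cells in the levels of the lipid transfer genes was not tested.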

How the data were processed

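Total RNA was measured on 24 Affymetrix arrays, 3 per group in 8 groups of stage by treatment. The authors' deposited table gives log2 levels with 1 value for each locus on each array, from RMA per the submitters' processing notes. The log2 scale was read from the values. The sources used here do not give the RMA version, how probes were assigned to loci, or if arrays were processed in 1 run. No normalization or filter was added, and no array pair was identical (0). A model of 8 group means was fitted to all 24 arrays with limma 3.58.1 in R 4.3.3 (lmFit, eBayes, 16 residual and 6.02 prior degrees of freedom), two-sided, with Benjamini-Hochberg adjustment over all 20777 loci within a contrast. The code of the fit was run on simulated data for the mannitol effect in seedlings only, with independent noise and no pairing. That run does not check the other contrasts or the effect of pairing.

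Alternatives were a replicate block, median centring, quantile normalization, a fit of the compared groups alone, a filter on low loci, an intensity trend with robust prior, and omission of each array. Deviations of same-numbered control and mannitol arrays from their group means correlated at 0.12 to 0.43 in seedlings, proliferating and expanding leaf, which were read as paired, and at 0.06 to 0.42 in mature leaf. The pairing enters only the replicate block. The main fit, with its SE, p-values and calls, does not use it. Members, lists and tests were chosen with earlier results of these data known. LTP2 and LTP3 are given without a test where mannitol leaf stages are compared, since those arrays helped to choose them. Tests that reuse control arrays of the choice were kept. For LTP2, LTP3 and AT5G01870 their p-values are not independent of it. Named are all members, the 3 most similar loci, and list genes mostly from those of smallest p per comparison. For several lists fewer than 3 such genes are named. Of the loci, 20508 had a name in the RefSeq gene table (TAIR10.1). That table has no descriptions, so other lipid transfer genes were matched by symbol and synonym. Protein and promoter sequences are not analysed here. P-values and SE rest on 1 spread per gene, taken over all 8 groups of 3 pooled samples and moderated over all loci. They do not measure the spread of the compared groups alone. For LTP3 the SE was 0.508 at each stage, while the group SD ran from 0.0705 in expanding control to 1.57 in seedling control. The number of arrays limits precision.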

Additional observations from a re-analysis of the deposited data

Results flagged for a closer look

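AT5G01870 stood out because its response to mannitol differed between 2 stages in a test of the difference itself. The effect in proliferating leaf minus that in seedlings was -2.30 ± 0.344 on the log2 scale (limma adjusted p = 0.0021, range over 18 alternatives 0.000168 to 0.0417). All 3 seedling mannitol arrays lay above the seedling controls, and in proliferating leaf the treatments overlapped. The control level was 10.81 in proliferating leaf and 6.47 in seedlings. The proliferating control arrays also enter the fall for which AT5G01870 was chosen, which favours a negative difference. The p-values here are therefore not independent of that choice.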

How the results depend on the processing

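Of the counts and medians over the members, 183 alternative values stayed within the tolerance (a factor of 1.5 for a count, the replicate SD for a median), and 9 did not. Counts for the steps between mannitol leaf stages still include LTP2 and LTP3 in this tally, though neither is tested there. Within that tolerance, the 3 members called higher in seedlings became 2 in 5 alternatives, each by loss of LTP1, and 4 in 1. From proliferating to expanding leaf on mannitol, the 3 members called higher (LTP4, LTP5 and LTP7) ran from 2 to 4, and LTP1 was called lower in 1 of 12 alternatives. With the replicate block, 1 member was called higher in proliferating leaf in place of 0, and 2 members in place of 1 had a smaller effect there than in seedlings. From expanding to mature control leaf, 1 member in place of 2 was called lower after median centring and in the fit of the groups alone, and the count ran from 1 to 2 when single arrays were omitted. The median difference of members from proliferating to expanding control leaf, -0.29, was -0.47 after quantile normalization and -3.57 among the loci above the low level, where 7 of 10 members remained (LTP4, LTP8 and LTP12 dropped out). Median centring moved the median change of all loci by 0.13 at most, in the step from proliferating to expanding leaf on mannitol. Single members gave 1046 unchanged values, 39 in which the sign of an uncalled value turned, 17 lost and 7 gained calls and 4 moved values. The cause of these shifts was not tested. List counts under the block and with arrays omitted were added after the data were seen. The block changed no other call of a member.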
